A study of Saccharomyces cerevisiae with 18 samples.

Results

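Transcript levels of 8 budding yeast genes that encode small heat shock proteins, membrane stress proteins and other small stress proteins were described in 18 RNA sequencing libraries. The genes were HSP26, HSP42, HSP31, HSP12, HSP30, DDR2, HOR7 and TMA10. They were taken from the deposited count table by their symbols, and they are 8 of its 7118 features. The set was chosen with results from these same libraries already known, so every level, fold change and call of these genes is given as a description, and no conclusion about a wider class of genes rests on it. All 8 genes passed the filter on low counts, which kept 6833 features for testing.

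The libraries fell into 6 groups of 3, from 3 strains that were each harvested aged or young. The msn2∆msn4∆ strain (CGY69.30, genotype MAT@ msn2::HphNT1 msn4::NatNT2) is labelled as deleted for MSN2 and MSN4, the msn2∆ strain (CGY61.46, MAT@ msn2::HphNT1) as deleted for MSN2, and the wildtype strain (CGY4.51) is MAT@ with no deletion named. All 6 groups grew in SC YNB medium at pH 4.5, without added biotin and with DAPA, 2% MMP and 2% glucose. Aged cells were biotin-labelled mother cells that carried magnetic beads and stayed for 24 h in a Ministat Aging Device (MAD), a chamber in which pumped medium runs past cells held by a magnet. Young cells came from exponentially growing cultures, so aged and young libraries differ in handling and growth mode as well as in age, and these cannot be told apart. Each genotype is 1 strain. Whether the replicates came from different cultures is not stated in the labels, and p-values then cover only the spread between these libraries, which may be technical. In bulk RNA, fewer cells that express a gene and less RNA per cell cannot be told apart.

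Small heat shock proteins are chaperones that need no ATP: they bind unfolding proteins and hold them in a form from which other chaperones can refold them. Other small stress proteins act at membranes, as Hsp12 does by binding lipid bilayers and Hsp30 does in the plasma membrane. Many of these genes are targets of Msn2 and Msn4, related zinc finger activators that enter the nucleus when protein kinase A activity falls, and that bind the stress response element. Some are also targets of the heat shock factor Hsf1, which binds repeated units of the heat shock element.

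The upstream stretches of 5 of the genes show how differently these elements are placed. They were read from the RefSeq reference genome of build R64, which is the build named in the submitters' processing notes, and the strains used may differ from it. HSP12 and DDR2 are shown because they differed most between the deletion strains and wildtype in young cells, HSP42 because it holds both kinds of element, HSP30 because it holds neither, and HSP26 because its elements lie further upstream. Each is written 5′ to 3′ on the gene's strand, and capitals mark the stress response element core AGGGG on either strand (read as CCCCT on the other) and the heat shock element pairs TTCNNGAA and GAANNTTC, where N is any base. HSP12 (chrVI:107006-107105, + strand) and HSP42 (chrIV:806371-806470, + strand) run from base -250 to base -151 before the start codon. DDR2 (chrXV:231906-232005, - strand) and HSP30 (chrIII:157258-157357, - strand) cover the same distance, and HSP26 (chrII:381530-381729, + strand) runs from -500 to -301.
HSP12: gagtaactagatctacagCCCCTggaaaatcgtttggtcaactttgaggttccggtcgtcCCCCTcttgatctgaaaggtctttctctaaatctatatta
HSP42: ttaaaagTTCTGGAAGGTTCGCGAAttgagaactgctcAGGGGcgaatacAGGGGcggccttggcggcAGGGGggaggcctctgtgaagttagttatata
DDR2: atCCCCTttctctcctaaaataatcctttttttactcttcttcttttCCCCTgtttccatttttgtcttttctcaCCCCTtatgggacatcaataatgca
HSP30: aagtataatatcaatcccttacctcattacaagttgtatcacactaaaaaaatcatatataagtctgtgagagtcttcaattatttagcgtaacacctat
HSP26: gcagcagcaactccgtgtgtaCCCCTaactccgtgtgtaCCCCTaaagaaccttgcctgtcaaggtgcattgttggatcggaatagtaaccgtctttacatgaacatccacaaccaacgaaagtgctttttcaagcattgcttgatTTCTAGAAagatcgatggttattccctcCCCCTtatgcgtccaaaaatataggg

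Each gene's window of 250 bases before to 50 bases after the first base of the start codon was searched on both strands. AGGGG was found in 4 of the 8 genes, with 2 matches in HSP12, 3 in HSP42, 1 in HSP31 and 3 in DDR2. Among all 6001 such windows of protein-coding genes 21.6% held at least 1 match, 2.93% at least 2 and 0.483% at least 3. TTCNNGAA was found in HSP42 and HSP31 and in 12.9% of all windows, and GAANNTTC in HSP42 and in 11.8% of all windows. The pairs in HSP42 overlap, with first bases at -243, -238 and -233, so that the heat shock units run on without a gap. TATAAA was found in 6 of the 8 genes and in 45.2% of all windows. In the wider window of 600 bases before the start codon AGGGG was found in 7 of 8 genes, and in 39.7% of 5999 windows. HSP12 then held 5 matches, DDR2 4, HSP26, HSP42 and HOR7 3 each, TMA10 2 and HSP31 1. HSP30 held no AGGGG and no heat shock element pair in that window, which says only that these letters are not there. In the same window TTCNNGAA was found in 4 genes and in 25.1% of all windows, and GAANNTTC in 2 genes and in 22.8%. A match is a description of the sequence and not a shown binding site.

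**Figure D1:**
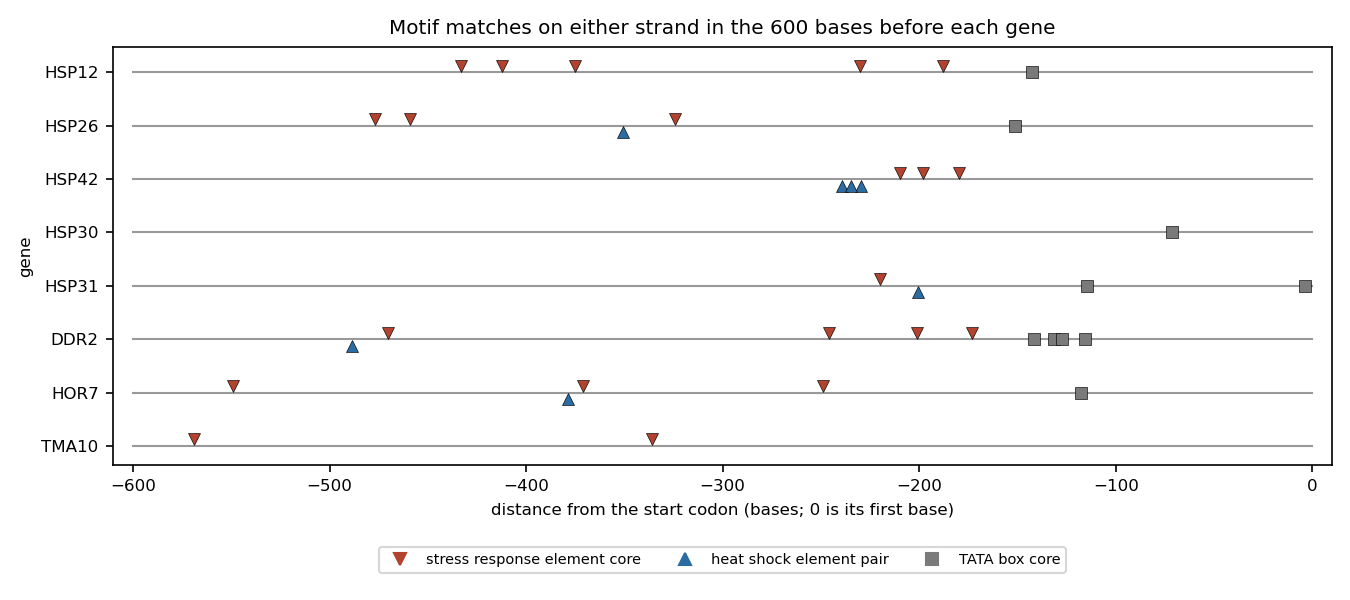
Positions of stress response element cores (AGGGG), heat shock element pairs and TATA box cores (TATAAA) in the 600 bases before the start codon of the 8 genes, on either strand. The horizontal axis is distance from the first base of the start codon in bases, and 7 of the 8 genes hold at least 1 stress response element core, HSP30 none.

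Library totals ran from 4078400 to 7136185 counts in aged msn2∆msn4∆ and from 25768602 to 41649952 in the other groups. MSN2 stood at 4.3 ± 0.603 and 3.58 ± 0.933 CPM (a gene's counts relative to the library total scaled with TMM factors, mean ± SD, n = 3) in aged and young msn2∆msn4∆, at 4.1 ± 0.447 and 4.28 ± 0.133 CPM in aged and young msn2∆, and at 33.4 ± 1.83 and 41.7 ± 2.87 CPM in aged and young wildtype. MSN4 stood at 13.4 ± 1.28 and 21.4 ± 3.02 CPM in aged and young msn2∆msn4∆, so reads on it were fewer but not gone, at 84.1 ± 2.43 and 50.6 ± 5.78 CPM in aged and young msn2∆, and at 51.5 ± 2.38 and 42.6 ± 2.77 CPM in aged and young wildtype. Where in MSN2 or MSN4 the remaining reads lie cannot be read from a gene total, so these levels do not tell how much of either gene the strains still hold. HSF1 group means lay between 29.3 and 39 CPM. Its aged-over-young log2 fold change was 0.25 ± 0.098 in msn2∆msn4∆ (edgeR adjusted p = 0.0351). It was 0.22 ± 0.0893 in msn2∆ (edgeR adjusted p = 0.0325) and 0.32 ± 0.09 in wildtype (edgeR adjusted p = 0.00433). The 4 MAT alpha-specific marker genes summed to 4110 to 4540 CPM in aged and 5740 to 6080 in young msn2∆msn4∆. The sums were 3810 to 4200 in aged and 5850 to 6120 in young msn2∆. In wildtype they were 3610 to 3920 aged and 4590 to 5670 young. The sums were thus lower in aged libraries of each strain, but the single genes differed. With age in wildtype 2 were called lower (edgeR adjusted p under 0.05) and SAG1 higher (0.34 ± 0.0909). Of all features 30.6% were called lower and 33.3% higher there. In young cells 3 of the 4 were called higher in each deletion strain than in wildtype. So were 17.9% of all features in msn2∆msn4∆ and 15% in msn2∆. The 6 MAT a-specific genes summed to 52.1 to 55.5 CPM in aged msn2∆msn4∆ and to 31.6 to 44.5 CPM over the libraries of the other 5 groups, and the pheromone gene MFA1 was highest of them with age in msn2∆msn4∆ (3.29 ± 0.284 on the log2 scale). The sums do not show the level of any single marker gene. The 12 daughter-cell genes summed to 2350 to 2720 CPM in aged and 2190 to 2570 in young msn2∆msn4∆, to 1800 to 2000 in aged and 1960 to 2200 in young msn2∆, and to 1730 to 1940 in aged and 1490 to 1550 in young wildtype. They were thus higher in both young deletion strains and in aged msn2∆msn4∆ than in wildtype of the same age, and the part of these 3 marker lists in the results below was not tested.

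**Figure D2:**
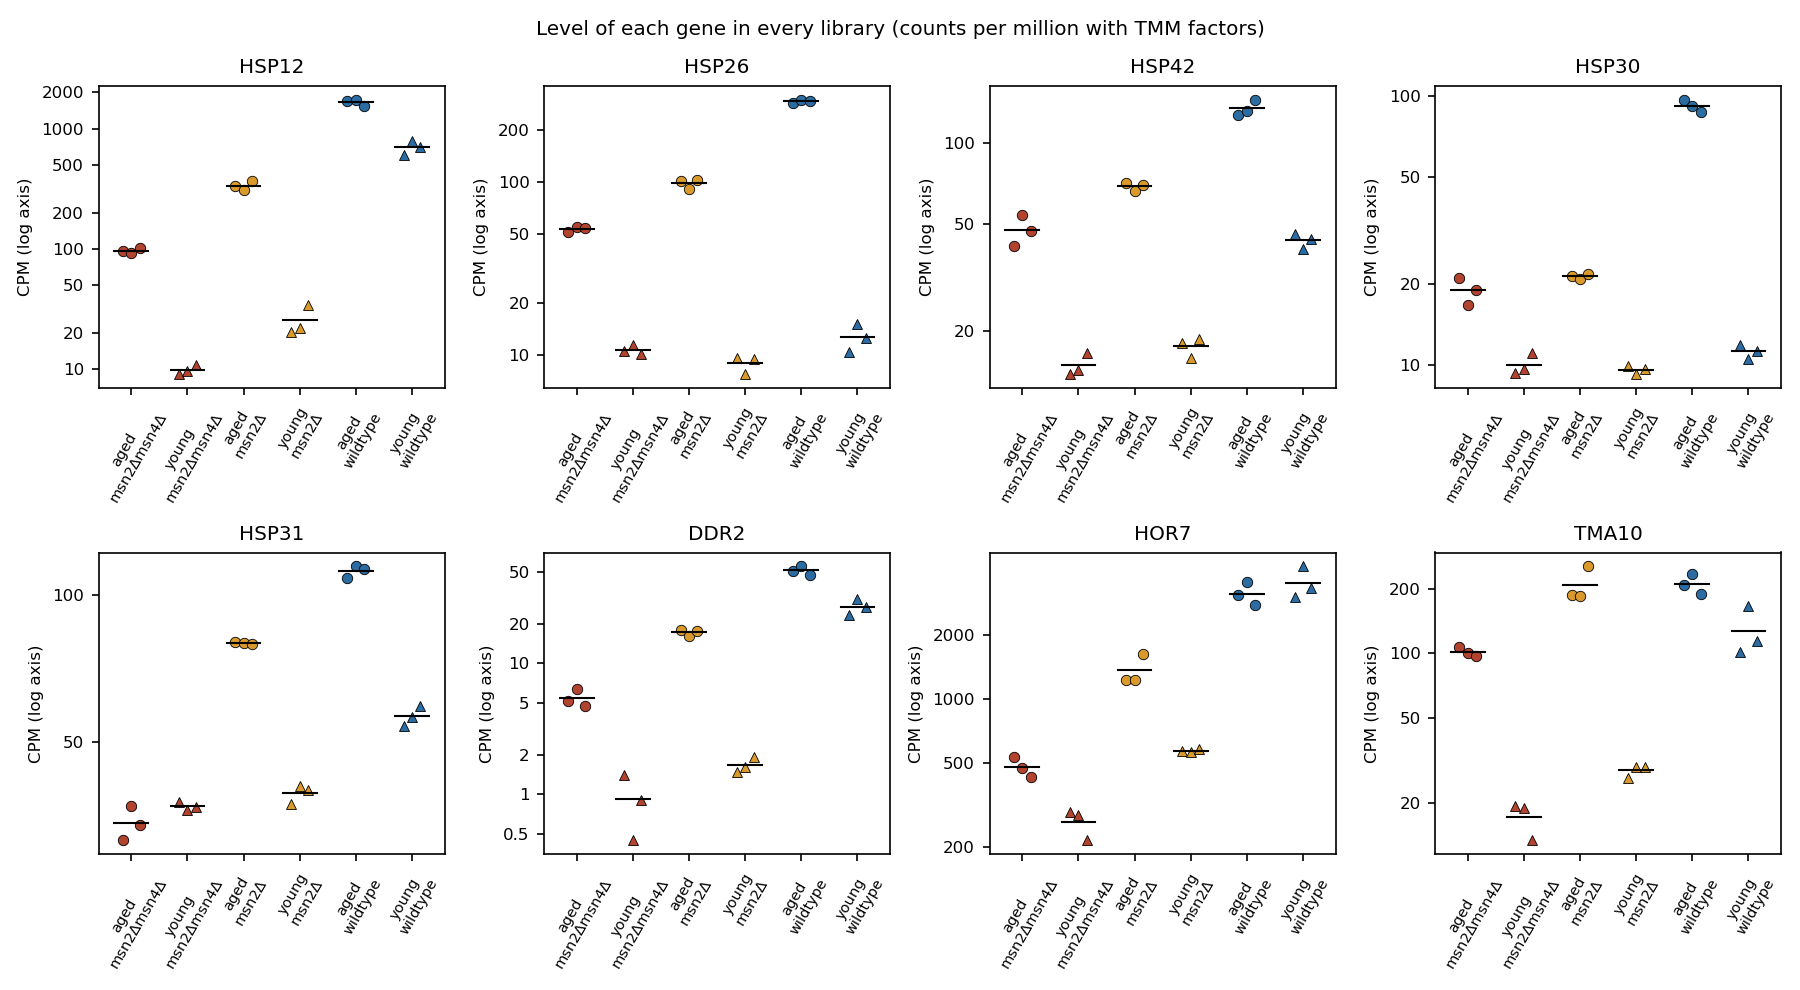
Level of each gene in every library as CPM with TMM factors on a log axis; points are single libraries (circles aged, triangles young) and lines are means of 3. HSP26 separates aged from young libraries in all strains, whereas HSP12, DDR2 and HOR7 separate wildtype from the deletion strains at either age.

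The 2 classical small heat shock genes are HSP26 and HSP42. HSP26 (YBR072W, chromosome II, 382030 to 382674, build R64) encodes a chaperone of large oligomers that open on heating. Its level was 51.7, 55.2 and 54.3 CPM in the 3 aged msn2∆msn4∆ libraries, against 10.5, 11.4 and 10.1 CPM in the young ones. The msn2∆ strain gave 102, 90.7 and 103 CPM aged, against 9.55, 7.72 and 9.43 CPM young. Wildtype gave 287, 301 and 297 CPM aged, against 10.3, 15.1 and 12.4 CPM young. All young libraries thus lay between 7.72 and 15.1 CPM, while the aged libraries of the 3 strains lay apart without overlap. The log2 fold change of aged over young cells was 2.33 ± 0.114 (SE) in msn2∆msn4∆, 3.47 ± 0.112 in msn2∆ and 4.55 ± 0.114 in wildtype. In young cells the deletion strains differed from wildtype by -0.24 ± 0.113 for msn2∆msn4∆ and -0.50 ± 0.116 for msn2∆, and the msn2∆msn4∆ value did not pass (edgeR adjusted p = 0.102, and 0.0113 without young wildtype replicate 1). In aged cells HSP26 was lower in both, at log2 fold changes of -2.46 ± 0.105 in msn2∆msn4∆ and -1.58 ± 0.0967 in msn2∆ relative to wildtype.

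HSP42 (YDR171W, chromosome IV, 806621 to 807748) encodes the small heat shock protein that is active at normal growth temperature and gathers misfolded proteins into cytosolic deposits. HSP42 was at 41.3, 53.8 and 47 CPM in aged msn2∆msn4∆ libraries, against 13.8, 14.3 and 16.5 CPM in young ones. In msn2∆ it was at 71.2, 66.6 and 69.7 CPM aged, against 18.1, 15.9 and 18.7 CPM young. In wildtype it was at 128, 131 and 145 CPM aged, against 45.9, 40.2 and 44.2 CPM young. Unlike HSP26, HSP42 was already lower in young deletion cells, and aged msn2∆msn4∆ libraries overlapped those of young wildtype. The aged-over-young change was 1.66 ± 0.103 in msn2∆msn4∆, 1.98 ± 0.0953 in msn2∆ and 1.63 ± 0.0908 in wildtype. Relative to wildtype the msn2∆msn4∆ strain was lower, at log2 fold changes of -1.52 ± 0.0962 aged and -1.54 ± 0.0968 young, and so was msn2∆, at -0.96 ± 0.0879 aged and -1.31 ± 0.0959 young.

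HSP31 (YDR533C, chromosome IV, 1501447 to 1502160) encodes a relative of human DJ-1 that removes methylglyoxal and has chaperone activity. Aged msn2∆msn4∆ libraries held 31.4, 37 and 33.8 CPM, against 37.6, 36.3 and 36.7 CPM in young ones. The msn2∆ libraries held 79.8, 79.7 and 79 CPM aged, against 37.2, 40.6 and 39.9 CPM young. Wildtype libraries held 108, 114 and 113 CPM aged, against 53.8, 56.1 and 59.2 CPM young. Aged cells thus had more HSP31 than young cells in msn2∆ (1.02 ± 0.0659) and wildtype (0.99 ± 0.0651), with no overlap, whereas aged and young msn2∆msn4∆ libraries overlapped. The msn2∆msn4∆ value was -0.12 ± 0.0737 (edgeR adjusted p = 0.156), and it turned to 0.31 (adjusted p = 0.00728) when library totals alone set the scale. In aged cells HSP31 was lower in msn2∆msn4∆ than in wildtype (log2 -1.72 ± 0.0724) and than in msn2∆ (log2 -1.23 ± 0.0722), and in young cells both deletion strains lay a little under wildtype (-0.61 ± 0.0665 for msn2∆msn4∆ and -0.52 ± 0.0665 for msn2∆).

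The 2 membrane stress genes are HSP12 and HSP30. HSP12 (YFL014W, chromosome VI, 107256 to 107585) encodes a small, unstructured protein that folds on membranes and stabilises them. HSP12 stood at 96.2, 92.1 and 101 CPM in aged msn2∆msn4∆ libraries, against 9.13, 9.64 and 10.9 CPM in young ones. It stood at 330, 308 and 366 CPM in aged msn2∆, against 20.5, 21.8 and 34.1 CPM in young msn2∆. It stood at 1690, 1740 and 1540 CPM in aged wildtype, against 606, 786 and 698 CPM in young wildtype. The 6 groups did not overlap anywhere, and young wildtype cells held more HSP12 than aged cells of either deletion strain. HSP12 was lower in young msn2∆msn4∆ than in young wildtype with a log2 fold change of -6.14 ± 0.176, the lowest value among the 8 genes, and in young msn2∆ with -4.78 ± 0.163. The gap was smaller in aged cells, at -4.10 ± 0.158 for msn2∆msn4∆ and -2.31 ± 0.143 for msn2∆. The aged-over-young change was 3.28 ± 0.161 in msn2∆msn4∆, 3.72 ± 0.156 in msn2∆ and 1.25 ± 0.139 in wildtype. The msn2∆msn4∆ strain was also below msn2∆, at log2 -1.79 ± 0.145 aged and -1.36 ± 0.155 young.

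HSP30 (YCR021C, chromosome III, 156109 to 157107) encodes a plasma membrane protein that dampens the proton pump Pma1 under stress. Its aged msn2∆msn4∆ libraries gave 21, 16.8 and 19 CPM, against 9.36, 9.66 and 11 CPM in the young ones. The msn2∆ libraries gave 21.5, 20.9 and 21.9 CPM aged, against 9.88, 9.25 and 9.64 CPM young. Wildtype libraries gave 97.2, 92.2 and 87.4 CPM aged, against 11.9, 10.5 and 11.3 CPM young. All young libraries lay between 9.25 and 11.9 CPM, and aged cells of both deletion strains overlapped each other, well under aged wildtype. The aged-over-young change was 0.93 ± 0.0989 in msn2∆msn4∆, 1.16 ± 0.0859 in msn2∆ and 3.04 ± 0.0858 in wildtype. In aged cells the deficit relative to wildtype was -2.27 ± 0.0906 for msn2∆msn4∆ and -2.11 ± 0.0792 for msn2∆, and msn2∆msn4∆ differed from msn2∆ by -0.16 ± 0.0924 (edgeR adjusted p = 0.218). In young cells the differences from wildtype were -0.16 ± 0.0904 for msn2∆msn4∆ (edgeR adjusted p = 0.167) and -0.23 ± 0.0913 for msn2∆ (adjusted p = 0.064). The msn2∆ value passed without young wildtype replicate 2 (adjusted p = 0.048) or without young msn2∆msn4∆ replicate 3 (adjusted p = 0.0462). The latter library is not part of that comparison, and without it the log2 fold change stayed at -0.23.

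DDR2 and HOR7 are related genes for very small stress proteins of unknown biochemical function, found through their response to DNA damage and to high osmolarity. DDR2 (YOL052C-A, chromosome XV, 231570 to 231755) gave 5.15, 6.39 and 4.7 CPM in aged msn2∆msn4∆ libraries, against 1.39, 0.445 and 0.913 CPM in young ones. It gave 18, 16.2 and 17.8 CPM in aged msn2∆, against 1.48, 1.63 and 1.95 CPM in young msn2∆. It gave 51, 55 and 47.2 CPM in aged wildtype, against 23.2, 31 and 26.8 CPM in young wildtype. The order of the groups was that of HSP12, again with no overlap between neighbours, but DDR2 was the gene with the fewest counts, 32 to 44 per library in aged and 13 to 33 in young msn2∆msn4∆. Its aged-over-young change was 2.57 ± 0.279 in msn2∆msn4∆, 3.36 ± 0.181 in msn2∆ and 0.92 ± 0.132 in wildtype. Relative to wildtype the log2 fold change of DDR2 was -3.27 ± 0.183 in aged and -4.92 ± 0.198 in young msn2∆msn4∆, and -1.56 ± 0.132 in aged and -4.01 ± 0.181 in young msn2∆.

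HOR7 (YMR251W-A, chromosome XIII, 774752 to 774931) had the highest level per coding length of the 8 transcripts in every group and made up 53.2% to 82.1% of their summed CPM. It stood at 533, 470 and 428 CPM in aged msn2∆msn4∆ libraries, against 293, 282 and 215 CPM in young ones. In msn2∆ it stood at 1230, 1230 and 1630 CPM aged, against 566, 562 and 577 CPM young. In wildtype it stood at 3090, 3530 and 2750 CPM aged, against 3020, 4200 and 3320 CPM young. Wildtype cells of either age thus held the most HOR7 and overlapped each other, and aged cells of each deletion strain lay above young cells of that strain. The aged-over-young change was 0.85 ± 0.145 in msn2∆msn4∆ and 1.26 ± 0.145 in msn2∆, and -0.17 ± 0.143 in wildtype (edgeR adjusted p = 0.303). The wildtype value turned to 0.35 (adjusted p = 0.00765) when library totals alone set the scale. Relative to wildtype, HOR7 was lower, at log2 fold changes of -2.71 ± 0.153 in aged and -3.74 ± 0.16 in young msn2∆msn4∆, and -1.20 ± 0.145 in aged and -2.63 ± 0.152 in young msn2∆.

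TMA10 (YLR327C, chromosome XII, 783127 to 783387) encodes a small protein that associates with ribosomes. Aged msn2∆msn4∆ libraries had 107, 100 and 96.8 CPM, against 19.4, 19 and 13.4 CPM in young ones. The msn2∆ libraries had 187, 186 and 255 CPM aged, against 26.3, 29.4 and 29.5 CPM young. Wildtype libraries had 210, 234 and 190 CPM aged, against 102, 166 and 114 CPM young. Aged msn2∆ and aged wildtype libraries overlapped for TMA10, with a difference of -0.01 ± 0.155 (edgeR adjusted p = 0.955), although young msn2∆ was lower than young wildtype (log2 -2.17 ± 0.167). The msn2∆msn4∆ strain stayed below wildtype at both ages, at log2 -1.06 ± 0.163 aged and -2.89 ± 0.174 young. Its aged-over-young change was 2.56 ± 0.176 in msn2∆msn4∆, 2.88 ± 0.17 in msn2∆ and 0.73 ± 0.157 in wildtype.

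Aged cells held more of most of these transcripts than young cells of the same strain. At an adjusted p under 0.05 in edgeR's quasi-likelihood test, with Benjamini-Hochberg adjustment over all tested features, 7 of 8 genes were called higher in aged msn2∆msn4∆, 8 of 8 in aged msn2∆ and 7 of 8 in aged wildtype. The genes without a call were HSP31 in msn2∆msn4∆ and HOR7 in wildtype. Of all tested features 31.2% were called higher and 29.9% lower with age in msn2∆msn4∆, 36.6% and 33% in msn2∆, and 33.3% and 30.6% in wildtype. The median log2 fold change of the 8 genes was 1.99 in msn2∆msn4∆, 2.43 in msn2∆ and 1.12 in wildtype, where the median of all tested features was 0.034, 0.0304 and 0.0311. Nothing is read from these counts, since the genes were chosen with such results known. Scaling by library totals alone moved the median of all features to 0.46 in msn2∆msn4∆, 0.62 in msn2∆ and 0.54 in wildtype. The shares called higher and lower were then 60.1% and 12.1% in msn2∆msn4∆, 72.1% and 9.44% in msn2∆, and 69.6% and 8.75% in wildtype. Age changes here are therefore relative to the bulk of the transcripts that TMM holds level. TMM factors were 1.1 to 1.28 in aged and 0.725 to 0.967 in young libraries.

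**Figure D3:**
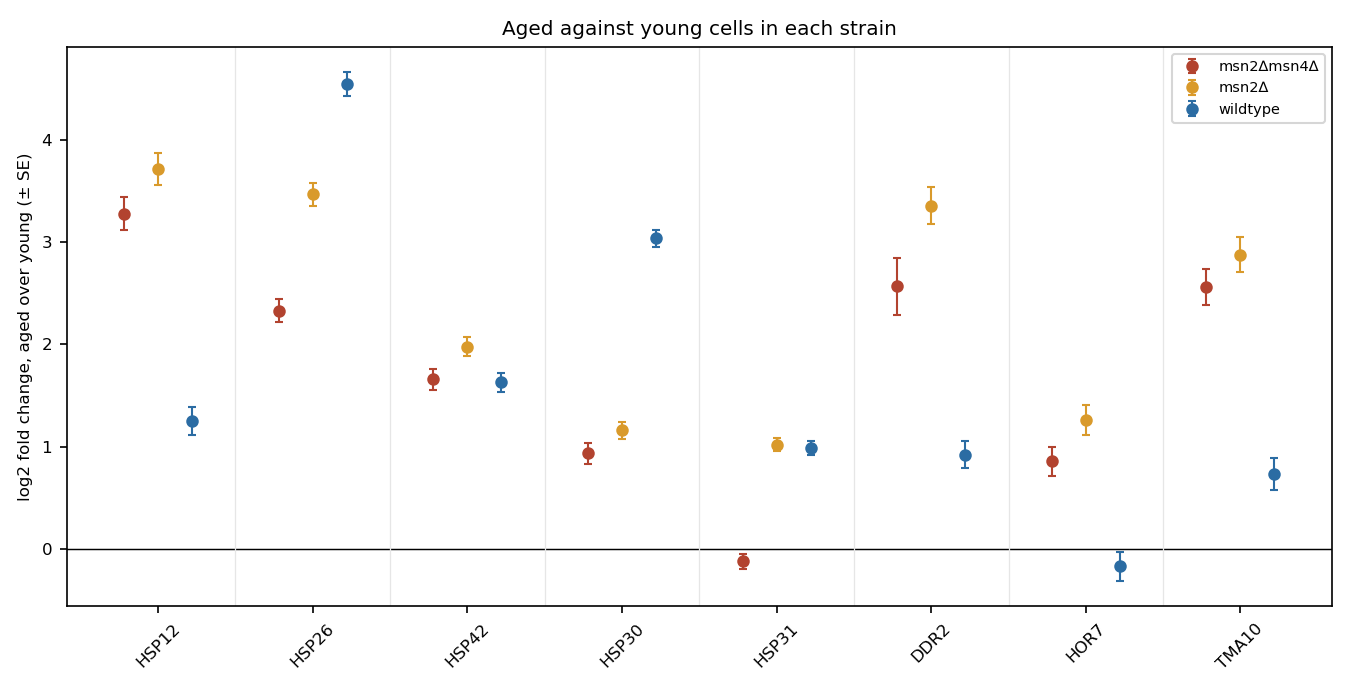
Aged-over-young log2 fold change of each gene (vertical axis, ± SE from the edgeR fit, 3 libraries a group) in msn2∆msn4∆, msn2∆ and wildtype. HSP26 and HSP30 have their highest value in wildtype, at 4.55 and 3.04, while all the other genes have theirs in msn2∆. Among those others, only HSP31 differed between msn2∆msn4∆ and msn2∆ at an edgeR adjusted p under 0.05. Between msn2∆ and wildtype, HSP31 and HSP42 did not pass (edgeR adjusted p = 0.853 and 0.0768).

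In young cells HSP12, DDR2, HOR7, TMA10, HSP42 and HSP31 were lower in both deletion strains than in wildtype, and HSP30 had no call in either. In young msn2∆msn4∆ 6 of 8 genes were called lower than in young wildtype and in young msn2∆ 7 of 8, the added gene being HSP26. Of all tested features 17.9% were called higher and 19.9% lower in young msn2∆msn4∆ than in wildtype (29.3% and 9.97% with library totals), and 15% and 15.5% in young msn2∆ (15.5% and 9.86%). The median log2 fold change of the 8 genes was -2.21 for msn2∆msn4∆ and -1.74 for msn2∆, against -0.00754 and -0.0115 for all features. As a share of young wildtype, the mean level in young msn2∆msn4∆ ran from 1.42% for HSP12 and 3.4% for DDR2 to 84.5% for HSP26 and 89.1% for HSP30. In young msn2∆ it ran from 3.66% for HSP12 and 6.24% for DDR2 to 85.3% for HSP30. Between the deletion strains, young msn2∆msn4∆ was called lower than young msn2∆ for HSP12 and HOR7 (-1.11 ± 0.145), 2 of 8 genes, where 0.132% of all features were called higher and 0.322% lower (0.146% and 0.132% with library totals). DDR2 (-0.91 ± 0.273) and TMA10 (-0.72 ± 0.171) did not pass there, with edgeR adjusted p = 0.197 and 0.0809, but did in DESeq2, with adjusted p = 0.0232 and 0.00832. TMA10 also passed in edgeR without young wildtype replicate 1 (adjusted p = 0.0471), young wildtype replicate 2 (0.0167) or aged msn2∆ replicate 3 (0.0379). These libraries are not part of that comparison, and its log2 fold change stayed at -0.72 without each of them.

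In aged cells the msn2∆msn4∆ strain was lower than wildtype for all 8 genes, and msn2∆ was lower for every gene but TMA10. The shares of all features called higher and lower were 16.6% and 19.7% for aged msn2∆msn4∆ (19.7% and 14.6% with library totals), and 13.9% and 16% for aged msn2∆ (24.3% and 7.42%). The median log2 fold change of the 8 genes was -2.36 for msn2∆msn4∆ and -1.38 for msn2∆, against -0.00669 and 0.0194 for all features. As a share of aged wildtype, levels in aged msn2∆msn4∆ ran from 5.82% for HSP12 and 10.6% for DDR2 to 35.2% for HSP42 and 48% for TMA10. In aged msn2∆ they ran from 20.2% for HSP12 and 23.2% for HSP30 to 71.2% for HSP31 and 99% for TMA10. Aged msn2∆msn4∆ was called lower than aged msn2∆ for 7 of 8 genes, HSP30 being the exception, where 11.3% of all features were called higher and 13.5% lower (4.29% and 14.9% with library totals). That difference was -1.71 ± 0.192 for DDR2, -1.51 ± 0.147 for HOR7, -1.04 ± 0.162 for TMA10, -0.88 ± 0.103 for HSP26 and -0.56 ± 0.0958 for HSP42. The median over the 8 genes was -1.14, against -0.0205 for all features.

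**Figure D4:**
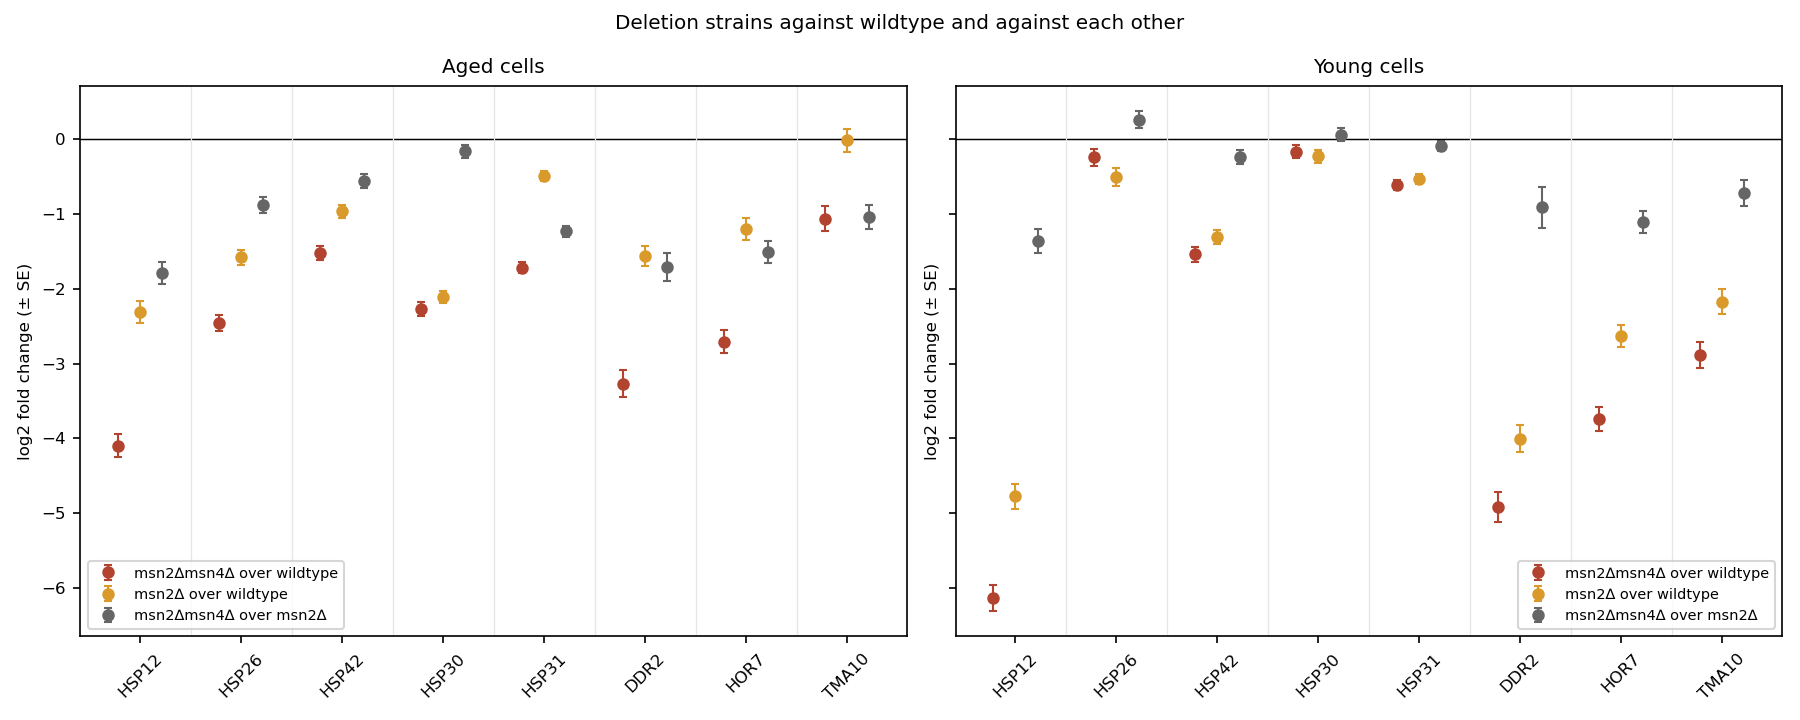
Log2 fold changes (± SE, 3 libraries a group) of msn2∆msn4∆ over wildtype, msn2∆ over wildtype and msn2∆msn4∆ over msn2∆, for aged cells (left) and young cells (right). Relative to wildtype, HSP26 and HSP30 lie between -0.50 and -0.16 in young cells and between -2.46 and -1.58 in aged cells, whereas HSP12, DDR2, HOR7 and TMA10 lie further below 0 in young than in aged cells. In msn2∆msn4∆ over msn2∆ those 4 lie further below 0 in aged than in young cells, and HSP30 is at -0.16 in aged cells. With TMM factors and all libraries, that difference between ages passed for none of those 4 (edgeR adjusted p = 0.202 to 0.495).

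The age change was then compared between strains, as the difference of aged-over-young log2 fold changes tested by an interaction contrast. The genes fell on both sides of 0. HSP12, DDR2, HOR7 and TMA10 had a larger age change in the deletion strains than in wildtype, by 2.03 ± 0.207, 1.65 ± 0.307, 1.03 ± 0.203 and 1.83 ± 0.233 in msn2∆msn4∆ and by 2.47 ± 0.2, 2.44 ± 0.229, 1.43 ± 0.203 and 2.15 ± 0.226 in msn2∆. HSP26 and HSP30 had a smaller age change, with differences of -2.22 ± 0.154 and -2.10 ± 0.128 in msn2∆msn4∆ and of -1.08 ± 0.15 and -1.88 ± 0.12 in msn2∆. The HSP26 value of msn2∆ was -0.77 with an adjusted p of 0.0784 once all libraries were thinned to the smallest total. HSP31 had a smaller age change in msn2∆msn4∆, with a difference of -1.11 ± 0.098, and a difference of 0.03 ± 0.0919 in msn2∆ (edgeR adjusted p = 0.853). HSP42 did not pass in either, at 0.02 ± 0.134 in msn2∆msn4∆ (edgeR adjusted p = 0.936) and 0.35 ± 0.129 in msn2∆ (adjusted p = 0.0768, and 0.0493 when only the libraries compared were fitted).

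In msn2∆msn4∆ minus wildtype 4 of the 8 genes were called higher and 3 lower, where 7.17% of all features were called higher and 8.99% lower (3.5% and 10% with library totals). In msn2∆ minus wildtype 4 were called higher and 2 lower, where 7.54% were called higher and 7.23% lower (7.38% and 2.63% with library totals). In msn2∆msn4∆ minus msn2∆ HSP26 (-1.14 ± 0.156) and HSP31 (-1.14 ± 0.0985) were called lower, where 1.71% of all features were called higher and 4.46% lower (0.41% and 7.93% with library totals). HSP12 (-0.44 ± 0.21) and DDR2 (-0.80 ± 0.347) did not pass there, with edgeR adjusted p = 0.258 and 0.202. HSP12 did without young msn2∆ replicate 3 (-0.70, adjusted p = 0.0127), whose HSP12 level of 34.1 CPM was the highest of its group, and DDR2 did without young msn2∆msn4∆ replicate 2 (-1.15, adjusted p = 0.0309), whose 0.445 CPM was the lowest of its group. All these comparisons share libraries with one another.

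**Figure D5:**
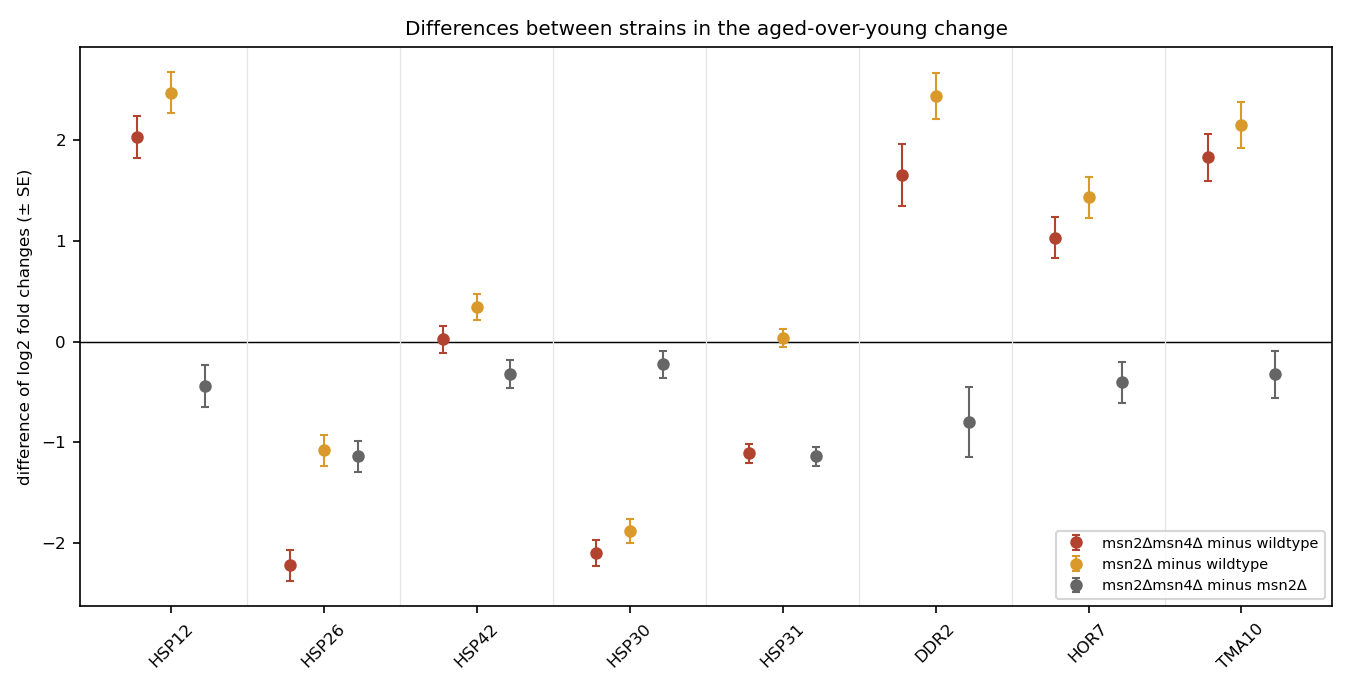
Difference between strains in the aged-over-young log2 fold change of each gene (vertical axis, ± SE). Points above 0 mark a larger age change in the strain named first: HSP12, DDR2, HOR7 and TMA10 lie above 0 in both deletion strains relative to wildtype, and HSP26 and HSP30 below.

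Levels can be set side by side between genes only per length, here as CPM per kilobase of coding length, which runs from 180 bases for HOR7 to 1128 for HSP42. In aged wildtype HOR7 stood at 17300 ± 2170 CPM per kilobase, HSP12 at 5020 ± 318, TMA10 at 810 ± 85.3, HSP26 at 457 ± 10.7 and DDR2 at 275 ± 21.1. HSP31, HSP42 and HSP30 followed at 156 ± 4.71, 119 ± 8.21 and 92.4 ± 4.92 CPM per kilobase. In CPM without division by length, DDR2 was below HSP31 and HSP42 in aged wildtype, at 51.1 against 112 and 135. In young msn2∆msn4∆ HOR7 still came first, at 1470 ± 235 CPM per kilobase, and TMA10 and HSP31 stood at 66.2 ± 12.9 and 51.6 ± 0.973, above HSP12 at 29.9 ± 2.73. HSP26, HSP42 and HSP30 were at 16.5 ± 1.06, 13.2 ± 1.28 and 10 ± 0.892 there, and DDR2 was at 4.93 ± 2.55. HSP12 thus stood below TMA10 and HSP31 in young msn2∆msn4∆ and above both in aged wildtype. The 8 genes together took 0.0939% to 0.106% of all counts in aged and 0.0304% to 0.0337% in young msn2∆msn4∆, 0.253% to 0.302% in aged and 0.0555% to 0.0618% in young msn2∆, and 0.6% to 0.678% in aged and 0.332% to 0.385% in young wildtype.

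The order of the 6 groups differed between the genes. Aged wildtype was the highest group for every gene but HOR7, for which aged wildtype averaged 3120 ± 390 CPM and young wildtype 3520 ± 611 CPM, with overlapping libraries. The second group was young wildtype for HSP12 and DDR2, and aged msn2∆ for HSP26, HSP42, HSP30, HSP31 and TMA10. Neighbours in the order whose libraries overlapped were young wildtype and young msn2∆msn4∆ for HSP26, and aged msn2∆msn4∆ and young wildtype as well as both young deletion groups for HSP42. For HSP30 both aged deletion groups overlapped, and so did the 3 young groups along the order, young msn2∆msn4∆ with young wildtype and with young msn2∆. For HSP31 young msn2∆, young msn2∆msn4∆ and aged msn2∆msn4∆ overlapped along the order, and for TMA10 aged msn2∆ with aged wildtype and aged msn2∆msn4∆ with young wildtype.

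Likeness of pattern was measured as the root mean square difference between the log2 group means of a pair of genes. Each gene was centred on its own mean over the 6 groups, so that 0 is an identical pattern. The measure was not scaled to how widely a gene varies. Distances are therefore smaller for genes that vary little, and their ranking partly reflects that width. Among the 28 pairs of the 8 genes the nearest were HSP12 with DDR2 at 0.489, HSP42 with TMA10 at 0.495 and HSP42 with HSP30 at 0.539, and the farthest was HSP12 with HSP31 at 2.11. Among all other tested genes whose mean log2 CPM reached 3, HSP31 had the nearest neighbours, PRX1 for a mitochondrial peroxiredoxin at 0.106 and YRO2 at 0.108. HSP42 was nearest to TFS1, an inhibitor of the vacuolar carboxypeptidase Y, at 0.159, and to YMR173W-A, a frame that overlaps DDR48 and whose reads may not be told from it, at 0.214. TMA10 was nearest to FMP48 at 0.225 and to YGP1, a cell wall glycoprotein gene, at 0.347. HSP30 was nearest to PIC2, a mitochondrial copper and phosphate carrier, at 0.381 and to TDA6 at 0.401. HOR7 was nearest to TSL1 of the trehalose synthase at 0.39 and to PNC1 for nicotinamidase at 0.406. HSP12 and DDR2 shared both neighbours, HXK1 for a hexokinase at 0.405 and 0.404 and RTC3 at 0.816 and 0.52. HXK1 averaged 13.8 CPM in aged and 1.57 in young msn2∆msn4∆, 51.1 in aged and 2.88 in young msn2∆, and 185 in aged and 48.7 in young wildtype. HSP26 was nearest to the enolase gene ENO1 at 0.518 and to the glucose transporter gene HXT4 at 0.547. With 3 age changes in place of the 6 means, 4 of these 16 neighbours were the same.

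Known relatives of the 8 genes did not all follow them. STF2, a relative of TMA10 linked to the mitochondrial ATP synthase, was at 74.2 ± 8.52 CPM in aged and 108 ± 17.8 in young msn2∆msn4∆, at 410 ± 105 in aged and 233 ± 3.2 in young msn2∆, and at 932 ± 130 in aged and 741 ± 210 in young wildtype. Its aged-over-young change was -0.54 ± 0.187 in msn2∆msn4∆, where that of TMA10 was 2.56 ± 0.176, then 0.82 ± 0.179 in msn2∆ and 0.33 ± 0.177 in wildtype (edgeR adjusted p = 0.109). YRO2 and MRH1 encode membrane proteins related to Hsp30. YRO2 changed with age by 0.06 ± 0.112 in msn2∆msn4∆ (edgeR adjusted p = 0.685), 1.26 ± 0.108 in msn2∆ and 1.20 ± 0.107 in wildtype, where HSP30 changed by 0.93, 1.16 and 3.04 in the same strains. MRH1 was at 1260 to 1740 CPM in all group means and did not pass for age in any strain (edgeR adjusted p = 0.823 in msn2∆msn4∆, 0.0897 in msn2∆ and 0.103 in wildtype). HSP32, HSP33 and SNO4 are near-identical subtelomeric relatives of HSP31, so how reads were divided among them is uncertain. Their group means ran from 0.182 to 4.16 CPM, and all 3 were higher in aged than in young msn2∆ and wildtype. In msn2∆msn4∆ HSP33 (1.18 ± 0.347) and SNO4 (2.59 ± 0.496) were called higher with age and HSP32 (0.28 ± 0.295) was not, with an edgeR adjusted p of 0.424.

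The wider stress response was described with 52 other genes known as Msn2/4 targets, all tested. With age 32 were called higher and 6 lower in msn2∆msn4∆, 45 and 4 in msn2∆, and 50 and 1 in wildtype, with medians of 0.619, 1.43 and 1.27. Of all tested features 31.2% were called higher and 29.9% lower in msn2∆msn4∆, 36.6% and 33% in msn2∆, and 33.3% and 30.6% in wildtype. With library totals, added after seeing the data, the 52 genes gave 44 higher and 2 lower, 51 and 0, and 51 and 1. The shares of all features called higher and lower were then 60.1% and 12.1% in msn2∆msn4∆, 72.1% and 9.44% in msn2∆, and 69.6% and 8.75% in wildtype. The highest was HXK1 in msn2∆msn4∆ (3.10 ± 0.198) and msn2∆ (4.15 ± 0.149) and GND2 of the pentose phosphate pathway in wildtype (3.31 ± 0.119), and the lowest in each strain was the thioredoxin gene TRX2 (-1.59 ± 0.19, -0.79 ± 0.186 and -0.85 ± 0.186). In young cells 39 were called lower in msn2∆msn4∆ than in wildtype and 37 in msn2∆, with medians of -0.905 and -0.749, and in aged cells 50 and 44, with medians of -1.65 and -0.786. The shares of all features called lower were 19.9% and 15.5% in young and 19.7% and 16% in aged cells. The median difference of age change from wildtype was -0.678 in msn2∆msn4∆, with 2 genes called higher and 36 lower (7.17% and 8.99% of all features). The 8 small stress protein genes split there, with 4 called higher and 3 lower. Their median of 0.525 therefore does not describe them as a set. In msn2∆ the median of the 52 genes was 0.0458, with 14 higher and 12 lower (7.54% and 7.23% of all features). The 8 genes split there too, with 4 called higher and 2 lower around a median of 0.888. In msn2∆msn4∆ minus msn2∆ 31 of the 52 were called lower, as were 4.46% of all features, with SOL4 of the same pathway lowest at -1.95 ± 0.264.

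The 24 chaperone genes known as Hsf1 targets were mostly lower in aged than in young cells with TMM factors, whereas with library totals most calls were lower only in msn2∆msn4∆ and calls in msn2∆ were nearly even. They were called higher in 3 and lower in 17 cases in msn2∆msn4∆, 2 and 18 in msn2∆ and 6 and 13 in wildtype, with medians of -0.705, -0.721 and -0.316. The shares of all features called higher and lower with age are those given for the 52 genes, 31.2% and 29.9%, 36.6% and 33%, and 33.3% and 30.6%. With library totals, added after seeing the data, 6 chaperone genes were called higher and 13 lower in msn2∆msn4∆, 10 and 11 in msn2∆ and 12 and 5 in wildtype, and the medians were -0.28, -0.13 and 0.19. Of all features 60.1% were then called higher and 12.1% lower in msn2∆msn4∆, 72.1% and 9.44% in msn2∆, and 69.6% and 8.75% in wildtype. The medians of all features were 0.46, 0.62 and 0.54, so those of the chaperone genes lay below them with either scaling. HSP104, HSP78 and SSA4 belong to both lists, so the lists are not separate. The Hsp70 gene SSA4 was the highest in each strain (1.58 ± 0.0733, 1.89 ± 0.0722 and 2.25 ± 0.0732) and the mitochondrial chaperonin gene HSP10 the lowest (-1.61 ± 0.19, -1.76 ± 0.19 and -1.41 ± 0.188). HSP26 and HSP42, also known as targets of both factors, are counted among the 8 genes and not in that list, and were higher with age in all 3 strains, as given above. In aged cells the disaggregase gene HSP104 was the lowest of the list in msn2∆msn4∆ relative to wildtype (-1.23 ± 0.0761) and in msn2∆ (-1.08 ± 0.0746), with 11 and 13 genes called lower (19.7% and 16% of all features) and 5 and 1 called higher (16.6% and 13.9%). In young cells 2 were called lower and 10 higher in msn2∆msn4∆, and 1 and 4 in msn2∆, against 19.9% and 17.9% and 15.5% and 15% of all features. The Hsp110 gene SSE1 was highest there (0.84 ± 0.0877 and 0.74 ± 0.0875).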

How the data were processed

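Polyadenylated RNA from 18 libraries was sequenced as paired reads of 150 bases after directional library preparation, per the labels' protocols. Per the submitters' processing notes, the build was R64 (sacCer3) and the tools were featureCounts (Subread 1.6.2), STAR 2.7.6a, cutadapt 2.6 and bcl2fastq. The counting options are not given in the sources used here. The authors deposited estimated counts per feature (expected counts in unit), many of them fractional, and 54.6% of its values above 0 were not whole within 0.005, so the values were rounded before testing. The authors' table is not scaled to depth.

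All 18 libraries were fitted together in edgeR 4.0.16 (R 4.3.3) with TMM factors, filterByExpr (6833 features kept, 285 left out), 1 mean per group and 12 residual degrees of freedom, and 12 contrasts were tested two-sided with its quasi-likelihood F test. The common biological coefficient of variation was 0.0922. SE is the log2 fold change divided by the root of F. Called means a Benjamini-Hochberg adjusted p under 0.05 over all tested features. The fit was also run on simulated counts drawn from young wildtype means, with known changes in aged wildtype, equally many up and down. Such counts hold no general shift between groups, so that run cannot speak to the choice of scaling. Levels are CPM with TMM factors, and CPM per kilobase uses coding length from the R64 annotation. Counting error is part of the fitted spread.

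The 8 genes, the gene lists, the tests and the alternatives were chosen with earlier results of these data known. The genes named are the 8, MSN2, MSN4, HSF1, 6 relatives, the 2 genes nearest in pattern to each of the 8, and the highest and lowest member of each list (other Msn2/4 stress genes, Hsf1 chaperones, daughter-cell genes, MAT a-specific and MAT alpha-specific genes). Proteins of the 8 genes were not compared here.

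Replicate numbers were checked for pairing through the correlation of deviations from group means. Over 6833 features no pair of compared groups had all 3 correlations over 0.1, so the numbers were taken not to pair libraries. No 2 replicates of a group agreed within counting noise. Alternatives were DESeq2 1.42.0, RLE factors, library totals, no filter, a filter of 10 CPM in 3 libraries, a replicate block, only the libraries compared, thinning to the smallest total, removal of 142 features (RRT15 and all Ty, ribosomal RNA and mitochondrially encoded ones), and each library left out.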

Additional observations from a re-analysis of the deposited data

Results flagged for a closer look

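Each result here is a difference between strains in the aged-over-young log2 fold change that passed edgeR's interaction test at an adjusted p under 0.05. The genes were chosen with such results known, so the values are a description.
In msn2∆msn4∆ minus wildtype the differences were 2.03 for HSP12, -2.22 for HSP26, -2.10 for HSP30, -1.11 for HSP31, 1.65 for DDR2, 1.03 for HOR7 and 1.83 for TMA10.
In msn2∆ minus wildtype they were 2.47 for HSP12, -1.08 for HSP26, -1.88 for HSP30, 2.44 for DDR2, 1.43 for HOR7 and 2.15 for TMA10. In msn2∆msn4∆ minus msn2∆ they were -1.14 for HSP26 and -1.14 for HSP31.
The 4 genes with a larger age change in the deletion strains were those furthest below wildtype when young. Young msn2∆msn4∆ held 1.42% of the young wildtype level of HSP12, 3.4% of DDR2, 7.5% of HOR7 and 13.6% of TMA10, whereas HSP26 and HSP30 stood at 84.5% and 89.1%. An age change and the level in young cells share the young libraries, so they are not independent. DDR2 rests on 13 to 33 counts per library in young msn2∆msn4∆.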

How the results depend on the processing

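Over the alternatives other than leaving out 1 library, 848 log2 fold changes of single genes kept their direction and side of the threshold. Of the others 11 turned, 4 newly passed and 1 no longer passed. Over single libraries left out, 1710 kept, 10 turned and 8 newly passed. The levels depended more on the scaling. With RLE factors or library totals, 52 mean CPM levels of the 8 genes stayed within their group's SD of the main value. A further 44 moved by at least that SD. The log2 fold changes that turned under library totals were HSP31 with age in msn2∆msn4∆ (0.31) and HOR7 with age in wildtype (0.35), both then called, and without a call HSP30 in young msn2∆msn4∆ over wildtype (0.01), HSP31 in young msn2∆msn4∆ over msn2∆ (0.03), TMA10 in aged msn2∆ over wildtype (0.12) and the HSP42 age difference of msn2∆msn4∆ minus wildtype (-0.05). That scaling moved all age changes up and raised HOR7 in msn2∆msn4∆ minus msn2∆ to a call (-0.55, adjusted p = 0.0334). A filter of 10 CPM in 3 libraries put TMA10 in aged msn2∆ over wildtype at 0.00. Thinning turned HSP30 in young msn2∆msn4∆ over msn2∆ (-0.27), and the age differences of HSP42 (-0.02) in msn2∆msn4∆ minus wildtype, of HSP31 (-0.11) in msn2∆ minus wildtype and of HSP30 (0.14) in msn2∆msn4∆ minus msn2∆, none of which passed in either fit, and the cause was not tested.
A fit of only the libraries compared brought HSP42 in msn2∆ minus wildtype to a call (0.33, adjusted p = 0.0493). DESeq2 called 4 of 8 genes in young msn2∆msn4∆ over msn2∆. EdgeR called 2 there, and 0.132% of all features higher and 0.322% lower. The share of all features that DESeq2 called was not recorded, so nothing is read from its count. Nearest neighbours in pattern were shared for 4 of 16 with age changes alone, and AGGGG was found in 7 of 8 genes in the wider window. With a library left out, the age difference of HSP42 in msn2∆msn4∆ minus wildtype ran from -0.07 to 0.12, that of HSP31 in msn2∆ minus wildtype from -0.00 to 0.07, and TMA10 in aged msn2∆ over wildtype from -0.18 to 0.07.
With the replicate block, 7 of 8 genes were called with age in wildtype, and the block changed no call of the 8 genes. The share of all features called with the block was not recorded, so nothing is read from that count. Over the 3865 features whose mean log2 CPM reached 5, aged and young wildtype had correlations of 0.301, 0.572 and 0.288 between libraries of the same number. Depth limits DDR2 most, since young msn2∆msn4∆ holds 13 to 33 of its counts per library.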
